A study of Mus musculus with 6 samples.

Results

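Late neutrophil granule genes encode the proteins that a maturing neutrophil packs into its secondary and tertiary granules and cytosol after the myeloblast stage. The 10 genes examined were Ltf, Camp, Ngp, Lcn2, Mmp8, Mmp9, Fcnb, Chil3, S100a8 and S100a9. Their peaks were taken from a consensus table of 182166 ATAC-seq peaks by a rule on position alone, namely overlap with the body of a member gene, or a position within 50 kb with that gene as the nearest protein-coding gene. The rule gave 61 peaks at 8 of the genes, of which 58 had a mean of at least 10 normalized reads and were tested, and 170733 of all peaks were tested. No peak of the table met the rule for Lcn2 or Chil3, and accessibility at these 2 genes was not analysed here. The members were Ltf with 13 peaks, Fcnb with 13, Mmp9 with 10, Mmp8 with 9, S100a9 with 8, S100a8 with 4, and Camp and Ngp with 2 each.

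ATAC-seq maps open chromatin through the insertion of sequencing adapters by the Tn5 transposase. It was applied to granulocyte-monocyte progenitors (GMPs), the bone marrow cells from which neutrophils and monocytes arise, sorted by flow cytometry from untreated C57BL/6 mice. Both genotypes were homozygous and carried human GFI1 instead of mouse Gfi1: GFI1-KI mice have the human gene at its place, and GFI1-KD mice express it at only 10-20%, so the comparison strain is itself humanized. Each genotype had 3 libraries, written KI1, KI2, KI3 and KD1, KD2, KD3 below. The labels do not give the ages of the mice or whether each library came from its own animal, so p-values measure the spread between libraries, which may in part be technical.

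GFI1 is a zinc-finger repressor that recruits histone-modifying enzymes to DNA and is required for neutrophil development. In textbook granulopoiesis the primary granule genes are transcribed in progenitors, and the secondary granule genes follow later under C/EBP-epsilon, a factor of the C/EBP family, at the myelocyte stage and after. Accessibility measures neither RNA nor protein, and no RNA level is given here for these cells.

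Reads in peaks ran from 19408373 to 27741446 (GFI1-KI) and from 16022763 to 19857646 (GFI1-KD). Chromosome Y reads numbered 1 in KI2, 0 in KD1 (where 3 reads is the limit that a count of 0 allows) and 499 to 865 elsewhere. The share of reads in peaks within 1 kb of a start site was 36.5% to 37.5% for GFI1-KI against 35.0% to 35.4% for GFI1-KD, so it moved with genotype. The GMP marker sums overlapped between genotypes, with 17792 to 18899 normalized reads over 8 GMP marker genes for GFI1-KI against 17403 to 18478 for GFI1-KD. In that list 2 of 96 peaks were higher and 5 lower, and the sum of Kit, the stem cell factor receptor gene, fell (log2 fold change -0.24 ± 0.05, limma adjusted p = 0.00513). No other sum of the list passed the test. Those of Mpo, Elane, Prtn3 and Ctsg had log2 fold changes of 0.04 to 0.15, and those of Cd34, Cebpa and Ms4a3 of -0.06 to -0.01. The sums over markers of late neutrophils, 5782 to 6367 for GFI1-KI against 6066 to 6493 for GFI1-KD, and of monocytes, 8760 to 9512 and 9176 to 9889, overlapped between genotypes. Of 57 late neutrophil peaks 7 were called higher and 4 lower, or 19.3%, and of 80 monocyte peaks 6 higher and 3 lower, or 11.25%, beside 10.5% of all tested peaks. Among other lineages, B cell marker sums overlapped at 2160 to 2451 against 2047 to 2225, with 2 of 45 peaks called higher and 3 lower. Erythroid, megakaryocyte and T cell sums did not overlap: erythroid sums were 1420 to 1635 against 1171 to 1277, megakaryocyte sums 2618 to 2913 against 2007 to 2367 and T cell sums 2574 to 2727 against 1993 to 2409, and in these 3 lists 3 of 16, 5 of 18 and 7 of 36 peaks were called lower and none higher. No tested peak was assigned to Hba-a1 or Car1 of the erythroid list. The part of these sums in the results on the granule genes was not tested. In sorted bulk cells a higher value may come from more cells with a site open or from more open copies per cell, which cannot be told apart.

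The promoters printed here are those of the 3 genes whose start-site peak rose, Mmp8, Camp and Fcnb, and of Ltf, whose start-site peak had the lower mean in GFI1-KD. Each is the 250 bases before the start site from RefSeq on GRCm38.p6, 5′ to 3′ on the strand of the gene, at chr9:7558179-7558428 (plus strand), chr9:109849457-109849706 (minus), chr2:28084879-28085128 (minus) and chr9:111019042-111019291 (plus). Capitals mark matches to TTGCNNAA, a C/EBP pattern, or to GAGGAAG, a PU.1 (ETS family) site, on either strand. All 250 bases of each lay inside the start-site peak of that gene.
Mmp8: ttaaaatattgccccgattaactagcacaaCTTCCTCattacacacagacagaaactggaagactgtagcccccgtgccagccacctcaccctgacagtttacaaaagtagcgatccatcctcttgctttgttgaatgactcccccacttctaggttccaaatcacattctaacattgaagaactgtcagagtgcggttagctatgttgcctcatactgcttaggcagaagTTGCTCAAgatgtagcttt
Camp: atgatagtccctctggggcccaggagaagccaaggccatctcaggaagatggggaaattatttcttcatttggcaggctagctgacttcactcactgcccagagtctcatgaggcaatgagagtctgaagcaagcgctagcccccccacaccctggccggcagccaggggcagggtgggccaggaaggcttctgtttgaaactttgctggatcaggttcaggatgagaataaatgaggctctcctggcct
Fcnb: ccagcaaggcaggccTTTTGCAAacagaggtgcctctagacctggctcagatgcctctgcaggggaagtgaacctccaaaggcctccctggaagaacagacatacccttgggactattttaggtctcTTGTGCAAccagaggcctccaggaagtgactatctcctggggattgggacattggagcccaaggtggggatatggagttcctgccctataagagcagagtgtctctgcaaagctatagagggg
Ltf: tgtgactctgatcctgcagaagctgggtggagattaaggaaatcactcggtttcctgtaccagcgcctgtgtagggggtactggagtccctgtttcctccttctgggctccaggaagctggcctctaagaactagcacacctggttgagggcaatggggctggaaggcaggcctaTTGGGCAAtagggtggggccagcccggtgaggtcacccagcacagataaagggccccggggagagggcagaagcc

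Motifs were searched on both strands in the 300 bases from 250 before to 50 after the start site, for the 9 members with a RefSeq window. Mmp9 had none. The C/EBP pattern was found in 6 of the 9 windows, those of Ltf, Ngp, Lcn2, Mmp8, Fcnb and S100a9, and in 10.8% of all 32851 windows. Its match in Mmp8 began 19 bases before the start site, the match in Ltf 75 bases before, and the pair in Fcnb 123 and 235 bases before. The PU.1 pattern stood in 3 windows, Lcn2, Mmp8 and S100a8, and in 13.6% of all. A match is a string of letters and does not show that a factor is bound there. The Camp window held neither pattern, and the patterns do not overlap one another in the printed windows.

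Across the 58 tested peaks, 8 rose in GFI1-KD, 1 fell and 49 did not pass the test (limma, Benjamini-Hochberg adjusted p under 0.05 over all tested peaks). Called members made up 15.5%, against 10.5% of all tested peaks, of which 4.99% were higher and 5.48% lower. The median log2 fold change, GFI1-KD over GFI1-KI, was 0.20 over the member peaks and -0.05 over all tested peaks. The member median includes weak peaks of Mmp8, Fcnb, Ltf and Ngp with GFI1-KI means under 10. They passed the filter only through their GFI1-KD values and all had positive log2 fold changes, so the filter favoured that direction. Scaling moved the balance: the share higher among all called peaks was 47.7% as deposited, 59.7% with median-of-ratios scaling and 74.8% with equal totals over gene-end peaks (those within 1 kb of either end of a gene), and under these 2 alternatives members had 10 and 14 rises and 1 fall each. Mmp8 supplied 4 of the 8 rises, Fcnb 2, and Camp and Ltf 1 each, and the only fall lay in Ltf. Without Mmp8 the count was 4 higher and 1 lower of 49, or 10.2%, which is near the share among all peaks. All 3 GFI1-KD libraries stood above all 3 GFI1-KI libraries in 15 of the 58 peaks and below them in 5, against 11.4% and 17.4% of all tested peaks. Those 15 include weak peaks upstream of Mmp8 and Fcnb with GFI1-KI means under 10, which passed the filter only through their GFI1-KD values. The count of called members was 16 without KI1, 3 without KI2, 2 without KI3 and 4 without KD3, and the share called among all tested peaks moved in the same direction, to 13.0%, 4.24%, 4.10% and 6.33%.

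**Figure D1:**
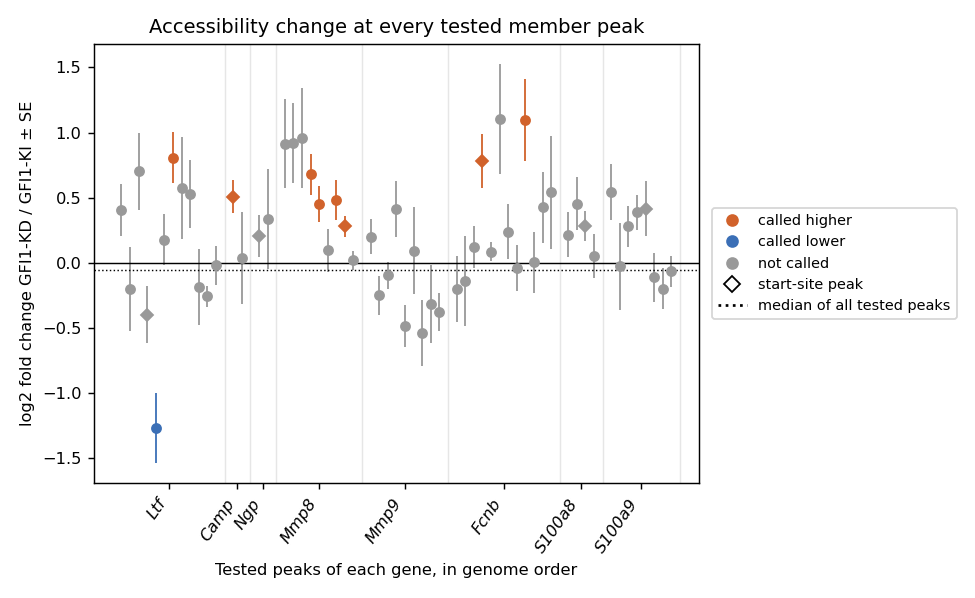
Log2 fold change (GFI1-KD over GFI1-KI, with SE) on the vertical axis for each of the 58 tested peaks, grouped by gene along the horizontal axis; diamonds are start-site peaks, orange is called higher, blue called lower and grey not called, and the dotted line is the median of all tested peaks. Called rises stand at Ltf, Camp, Mmp8 and Fcnb, and the 1 called fall, in Ltf, lies at -1.27.

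Start-site peaks, those within 1 kb of the annotated start, were higher at 3 of 7 members in GFI1-KD (Camp, Mmp8 and Fcnb) and lower at none. Among all 24786 tested start-site peaks 2.01% were called higher, and their median log2 fold change was -0.09 against 0.28 for the 7 members. Summed over the 7 peaks, the libraries held 1555, 1245 and 1294 normalized reads in KI1, KI2 and KI3, against 1968, 1541 and 1669 in KD1, KD2 and KD3. KI1 and KD2 overlapped in that sum. KI1 was the highest GFI1-KI library in 6 of the 7 peaks, against 46.3% of all start-site peaks. The 3 calls depended on the libraries: 4 start-site peaks were called without KI1, 1 without KD1, 1 without KD3, and 0 without KI2 or KI3, where the adjusted p of the Camp peak was 0.0762 or 0.0825. At an unadjusted limma p under 0.05 there were 4 with all libraries, beside 6065 of all 24786 start-site peaks. On recovered reads edgeR called 4 and DESeq2 3. Beside these stand 12.6% and 6.31% of all tested peaks, called in either direction and not limited to start sites. No share of all start-site peaks was counted for these tests or for the libraries left out.

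**Figure D2:**
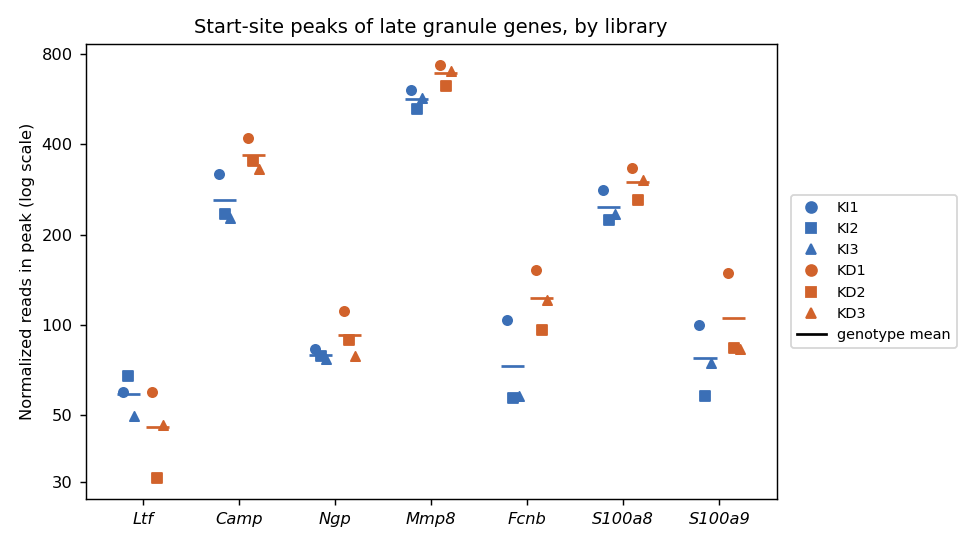
Normalized reads in the start-site peak of each of 7 member genes (log axis), 1 symbol per library and a bar at each genotype mean. Camp and Mmp8 separate the genotypes without overlap, Fcnb and both S100 genes are higher on average in GFI1-KD with KI1 inside the range of GFI1-KD, and Ltf has the lower mean in GFI1-KD.

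With both genotypes pooled, the mean level at the start sites differed widely between members. Per kilobase of peak, and as mean and SD over all 6 libraries, Mmp8 held 1254 ± 159 normalized reads and stood at the 93.1 percentile of all start-site peaks. Camp followed with 509 ± 119 and S100a8 with 362 ± 56.0. Fcnb (250 ± 94.4), S100a9 (218 ± 74.5) and Ngp (214 ± 32.1) did not differ beyond their spread. Ltf had the lowest mean, 148 ± 36.7, at the 25.8 percentile, but its spread overlapped those of Fcnb, S100a9 and Ngp. Camp overlapped S100a8 in this way, and S100a8 overlapped Fcnb, so only Mmp8 stood apart. The order of the means thus ran from a collagenase gene with a wide open start site to the lactoferrin gene with one of the weaker ones.

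Mmp8 encodes neutrophil collagenase, a protease of the secondary granules that cleaves fibrillar collagen. The gene lies on chromosome 9 from 7558429 to 7568486 (mm10). All 9 of its peaks had a positive log2 fold change, as did 74288 of all 170733 tested peaks. In 7 of the 9 every GFI1-KD library stood above every GFI1-KI library, against 11.4% of all tested peaks. Among these 7, the peaks 14.9 and 10.9 kb upstream had GFI1-KI means of 9.07 and 8.65 normalized reads. They passed the filter of 10 only through their GFI1-KD values, so the filter favoured their direction. The start-site peak, from 7558086 to 7558587, held 607, 526 and 572 normalized reads in GFI1-KI (KI1, KI2, KI3 in order) and 738, 628 and 704 in GFI1-KD (KD1, KD2, KD3). The genotypes did not overlap, and the rise was small, 0.28 ± 0.08 on the log2 scale (SE; limma adjusted p = 0.0348). The call was lost without KI2 (0.213), KI3 (0.116), KD1 (0.104) or KD3 (0.121). It is this peak that covers the promoter printed for Mmp8.

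Upstream of Mmp8, 3 further peaks rose. The farthest of them, 6.1 kb outside, from 7552005 to 7552290, held 72.1, 72.7 and 62.7 normalized reads in GFI1-KI and 111, 123 and 99.8 in GFI1-KD. Every GFI1-KD library was above the GFI1-KI libraries by more than the spread within either genotype, and the rise was a log2 fold change of 0.68 ± 0.16 (adjusted p = 0.00745 by limma, and 0.0521 without KI3). The peak 4.5 kb outside, from 7553633 to 7553945, held 110 ± 9.90 against 150 ± 9.24 (SD, n = 3; limma adjusted p = 0.0354), a call lost without KI2, KI3, KD2 or KD3 (0.0798 to 0.167). The peak 1.8 kb outside, from 7556331 to 7556587, rose from 101 ± 17.2 to 141 ± 21.4 normalized reads (limma adjusted p = 0.0491), and this call was lost without KI2, KI3, KD1, KD2 or KD3 (limma adjusted p from 0.0586 to 0.229) and by DESeq2 (0.0516). Between them a peak 3.8 kb outside stayed at 70.6 ± 3.60 against 75.7 ± 8.53 and did not pass the test.

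Farther out, 3 weak peaks 10.9 to 14.9 kb from Mmp8 had means of 8.65 to 12.6 normalized reads in GFI1-KI against 17.7 to 24.6 in GFI1-KD. The outermost held 6.76, 11.4 and 9.06 normalized reads in GFI1-KI against 19.3, 16.0 and 17.7 in GFI1-KD. Its genotypes did not overlap, but at this depth it missed the threshold (log2 fold change 0.91 ± 0.34, limma adjusted p = 0.0885), as did the peaks 12.6 and 10.9 kb out (0.059 and 0.112). The Mmp8 peak with the highest mean over all 6 libraries, inside the gene 9.0 kb past the start site, held 652 ± 33.2 against 660 ± 20.7 normalized reads and did not pass the test (limma adjusted p = 0.909). Per kilobase it stood below the start-site peak, at 1199 against 1254 normalized reads. Summed over the 7 upstream peaks, the libraries held 409, 374 and 359 in GFI1-KI and 519, 569 and 530 in GFI1-KD, a ratio of means of 1.42. This sum includes the outermost peak and that 10.9 kb out, which passed the filter only through their GFI1-KD values. Among the 81 other tested peaks within 500 kb of Mmp8, 8 were higher and 7 lower, or 18.5%, with a median log2 fold change of -0.0016. This neighbourhood thus had more calls than the 10.5% of all peaks but no common direction, and its part in the Mmp8 result was not tested.

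**Figure D3:**
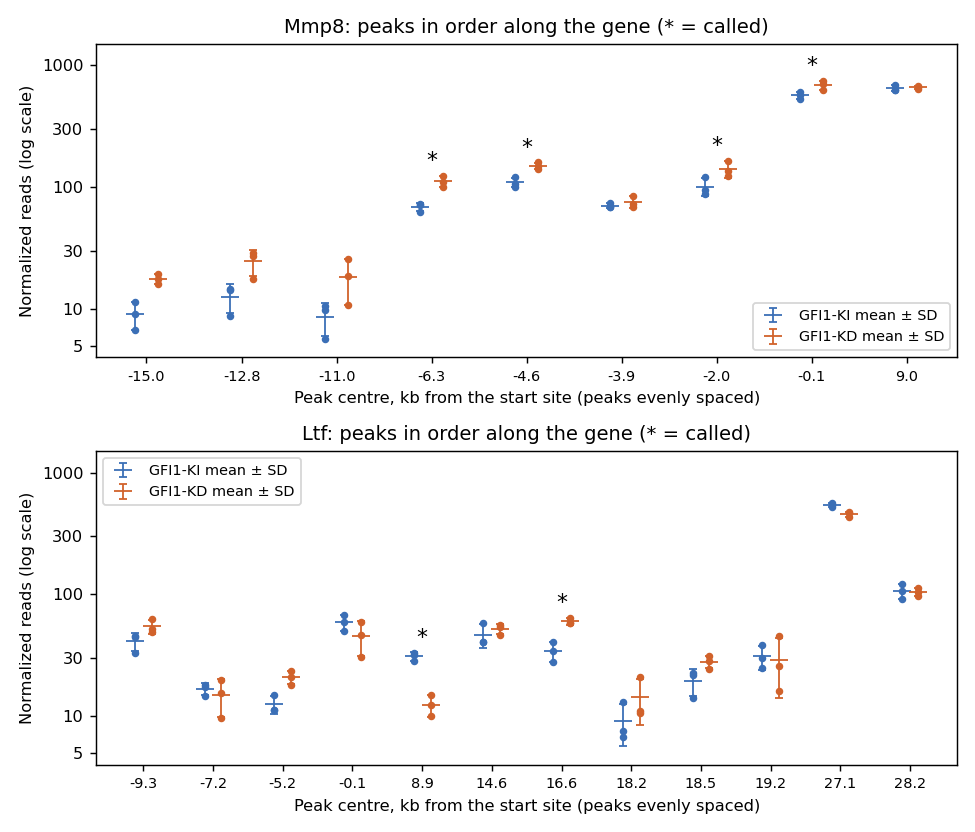
Normalized reads (log axis) in each tested peak of Mmp8 (top) and Ltf (bottom), in order by the distance of the peak centre from the start site in kb; dots are libraries, bars are means with SD, and stars mark called peaks. GFI1-KD lies above GFI1-KI at the Mmp8 start site and most upstream peaks but not at the peak 9.0 kb inside, and Ltf has 1 peak that fell 8.9 kb inside and 1 that rose 16.6 kb inside.

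Ltf encodes lactoferrin, the iron-binding protein of the secondary granules. It lies on chromosome 9 from 111019292 to 111042766, and 12 of its peaks were tested. Changes inside the gene ran both ways. The peak from 111028088 to 111028380, 8.9 kb past the start site, held 28.1, 33.3 and 31.7 normalized reads in GFI1-KI against 14.98, 12.3 and 9.98 in GFI1-KD. All GFI1-KD libraries were below all GFI1-KI libraries, and this was the largest change among the member peaks, a log2 fold change of -1.27 ± 0.27 (limma adjusted p = 0.00457). Its call held in all 18 alternatives that tested it, with an adjusted p of 0.00301 to 0.0384.

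A second Ltf peak, 7.6 kb farther into the gene from 111035732 to 111035952, rose. It held 40.5, 34.2 and 27.9 normalized reads in GFI1-KI and 57.8, 58.0 and 64.3 in GFI1-KD, again without overlap (log2 fold change 0.81 ± 0.20, limma adjusted p = 0.0112), and its call was lost without KI3 (0.0821) or KD3 (0.0546). Within each library the ratio of the rising to the falling peak was 1.44, 1.03 and 0.881 in GFI1-KI against 3.86, 4.70 and 6.44 in GFI1-KD. This ratio does not depend on how the libraries were scaled, and it was formed after both peaks had been called, so it carries no test.

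The rest of Ltf held no call. Its start-site peak had 59.7, 67.5 and 49.8 normalized reads in GFI1-KI and 59.9, 30.9 and 46.6 in GFI1-KD, and the genotypes overlapped (log2 fold change -0.40 ± 0.22, limma adjusted p = 0.264). The strongest Ltf peak lay 3.4 kb beyond the gene, from 111046172 to 111046606, with 524, 543 and 568 normalized reads in GFI1-KI and 464, 429 and 472 in GFI1-KD. The GFI1-KD libraries were all lower there, by a log2 fold change of -0.26 ± 0.08 that just missed the threshold (limma adjusted p = 0.0508). It was called in 5 of 19 alternatives, and its adjusted p over them ran from 0.0397 (without KI1) to 0.239. Of 3 upstream peaks, those 9.2 and 5.1 kb outside the gene were higher in every GFI1-KD library without passing the test, at 41.3 ± 6.98 against 54.7 ± 7.35 and 12.5 ± 2.08 against 20.9 ± 2.63 normalized reads. The one between them, 7.1 kb outside, overlapped between genotypes at 16.8 ± 1.87 against 14.97 ± 5.08 normalized reads.

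Camp and Ngp encode cathelicidin-related proteins of the secondary granules and lie on the same chromosome 9 as Ltf. Camp, from 109847377 to 109849456, is the gene of the antimicrobial peptide cathelicidin. Its start-site peak, from 109849265 to 109849882, held 319, 234 and 228 normalized reads in GFI1-KI against 422, 352 and 332 in GFI1-KD. KI1 stood well above the other GFI1-KI libraries yet below every GFI1-KD library, and the peak rose by a log2 fold change of 0.51 ± 0.12 (limma adjusted p = 0.011). Its second peak, 11.97 kb upstream, held 21.5 ± 7.63 against 23.9 ± 14.5 normalized reads (limma adjusted p = 0.965). The start-site peak of Ngp, neutrophilic granule protein, from 110419515 to 110419917, held 83.3, 78.9 and 77.0 in GFI1-KI and 111, 88.9 and 78.7 in GFI1-KD. KD1 and KD2 were above every GFI1-KI library and KD3 was not, and the peak did not pass the test (log2 fold change 0.20 ± 0.16, limma adjusted p = 0.462).

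Fcnb encodes ficolin-B, a lectin of the complement system, on chromosome 2 from 28076479 to 28084910. The start-site peak, from 28084782 to 28085173, held 104, 57.0 and 58.1 normalized reads in GFI1-KI against 153, 96.3 and 121 in GFI1-KD. KI1 was above KD2, so the genotypes overlapped, and the rise was a log2 fold change of 0.78 ± 0.20 (limma adjusted p = 0.0168), lost without KI2 (0.105), KI3 (0.0956), KD1 (0.0708) or KD3 (0.0615). In a weak peak 7.7 kb upstream every GFI1-KD library was above every GFI1-KI library, at 7.76 ± 4.68 against 15.8 ± 0.930 normalized reads, without passing the test (limma adjusted p = 0.098). That peak passed the filter on the mean only through its GFI1-KD values. A weak peak 17.1 kb upstream, from 28102010 to 28102213, held 10.1, 7.89 and 14.3 in GFI1-KI and 27.8, 18.5 and 25.5 in GFI1-KD, with no overlap (log2 fold change 1.10 ± 0.32, limma adjusted p = 0.0281). Its call was lost without KI2 (0.132), KD1 (0.0924) or KD3 (0.0977) and by DESeq2 (0.0945). The strongest Fcnb peak, 7.0 kb upstream from 28091928 to 28092570, held 696 ± 31.3 against 739 ± 31.0 normalized reads and did not pass the test (limma adjusted p = 0.499). The other tested peaks within 500 kb of Fcnb had 14 called higher and 3 lower of 127, or 13.4%, with a median log2 fold change of 0.009, and their part in the result was not tested. The strongest peak holds most of the reads of the locus, so the sum over Fcnb moved less than its start site.

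S100a8 and S100a9 encode the 2 subunits of calprotectin, the calcium- and zinc-binding protein that fills the neutrophil cytosol, and are neighbours on chromosome 3 from 90669071 to 90670034 and from 90692630 to 90695721. None of their 12 tested peaks was called. The S100a8 start-site peak, from 90668651 to 90669406, held 283, 224 and 234 normalized reads in GFI1-KI and 335, 262 and 304 in GFI1-KD (log2 fold change 0.28 ± 0.12, limma adjusted p = 0.133). KI1 lay inside the range of GFI1-KD, and without it the peak was called (0.0365), 1 of 5 alternatives of 19 that called it. The S100a9 start-site peak, from 90695646 to 90696065, ran from 57.8 to 100 in GFI1-KI and from 83.2 to 149 in GFI1-KD (limma adjusted p = 0.225). The peak inside S100a9, from 90693475 to 90693871, separated the genotypes, with 114, 124 and 123 against 139, 168 and 169, and missed the threshold at 0.39 ± 0.13 (limma adjusted p = 0.0662), being called in 6 of 19 alternatives. Its strongest peak, from 90686613 to 90687392 between the genes, held 221 ± 49.8 against 269 ± 66.4 normalized reads (limma adjusted p = 0.268).

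Mmp9 encodes gelatinase B, the protease that gives the tertiary granules their other name, on chromosome 2 from 164940326 to 164955850. It had no called peak among 9 tested. Of its 9 log2 fold changes 6 were negative and 3 positive, beside 74288 positive of 170733 among all tested peaks. The peak inside the gene from 164947883 to 164948303 held 92.3, 92.9 and 117 normalized reads in GFI1-KI and 79.2, 66.6 and 68.7 in GFI1-KD. All GFI1-KD libraries were lower, and the difference missed the threshold (log2 fold change -0.48 ± 0.16, limma adjusted p = 0.057), although it was called without KI1 (0.0431), without KD1 (0.0431) or with a mean of at least 50 (0.0448). The strongest Mmp9 peak, from 164942740 to 164943302, held 473 ± 12.04 against 446 ± 71.8 (limma adjusted p = 0.602). No tested peak lay within 1 kb of either end of Mmp9.

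Counting each gene once, the normalized reads of all its tested peaks were summed and the sums were tested over 17729 genes, of which 17.2% differed and 3.86% were higher in GFI1-KD. Of the 8 member genes 2 rose and none fell. The Mmp8 sum went from 1601 ± 92.4 to 1889 ± 40.3 normalized reads (SD, n = 3; log2 fold change 0.24 ± 0.06, limma adjusted p = 0.00842), and the Camp sum from 282 ± 57.3 to 392 ± 59.9 (0.48 ± 0.12, limma adjusted p = 0.00907). The Mmp8 call was lost without KI2 (0.0747) and where only peaks in the gene body or within 1 kb were summed (0.104), and the Camp call without KD2 (0.0545). S100a8 (0.24 ± 0.09), S100a9 (0.18 ± 0.08) and Fcnb (0.17 ± 0.07) had positive log2 values and missed the threshold, with limma adjusted p of 0.073, 0.0977 and 0.081. Those 3 were called with median-of-ratios scaling (0.0301, 0.0394 and 0.0186), under which the share of all gene sums called higher also went from 3.86% to 7.24%. Ngp (0.22 ± 0.16), Ltf (-0.09 ± 0.07) and Mmp9 (-0.10 ± 0.07) did not pass. The sums of Mmp8, Fcnb, Ltf and Ngp include weak peaks with GFI1-KI means under 10. Those peaks passed the filter only through their GFI1-KD values, so the filter favoured a rise of these sums. With libraries scaled to equal totals over gene-end peaks, the signs of Ltf and Mmp9 turned to 0.03 and 0.02. That scaling moved the median log2 fold change of all gene sums by 0.12.

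**Figure D4:**
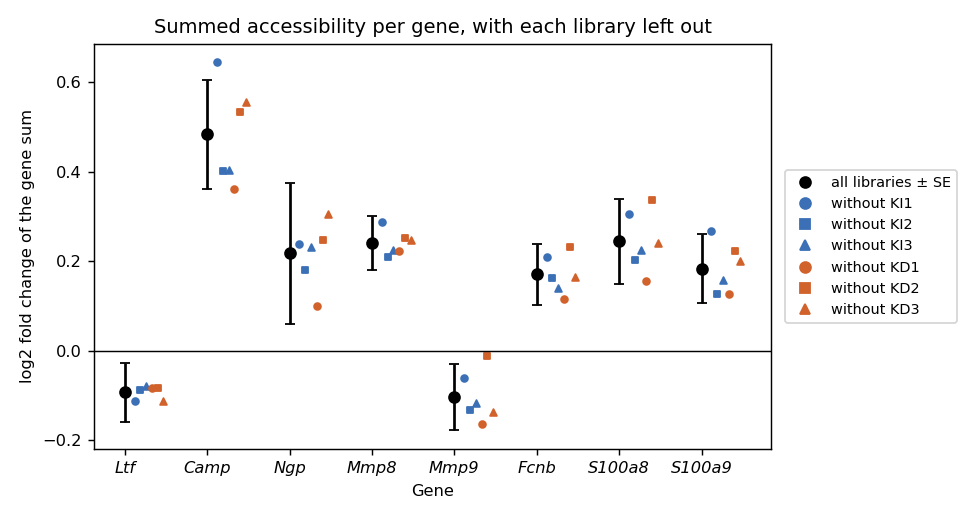
Log2 fold change (GFI1-KD over GFI1-KI) of the summed tested peaks of each member gene; black points with SE use all libraries, and coloured symbols leave out 1 library each. Mmp8 stays between 0.21 and 0.29, Camp between 0.36 and 0.64, and Ltf and Mmp9 stay below 0 with the deposited scaling.

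Other genes of neutrophil maturation were counted for comparison. Among 18 other genes of granule, oxidase and granule membrane proteins, 9 peaks were higher, 2 lower and 140 not called of 151, or 7.28%, with a median log2 fold change of 0.08. Mpo, the myeloperoxidase gene of the primary granules, had 1 of 5 peaks higher, and Elane, Prtn3 and Ctsg, the serine proteases of the same granules, had none of 13. Cybb, the catalytic subunit of the NADPH oxidase, had 2 of 12 higher, and its strongest change was at a peak inside the gene that rose from 49.9 ± 19.3 to 121 ± 5.54 normalized reads (limma adjusted p = 0.000272). The single tested peak of Olfm4, a secondary granule gene, fell from 29.7 ± 10.8 to 14.3 ± 1.70 (limma adjusted p = 0.0397).

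Receptors and surface proteins of late neutrophils had 15 peaks higher, 4 lower and 110 not called of 129, or 14.7%, with a median of 0.10. The 4 lower peaks lay at Ceacam1, Csf3r, Cxcr2 and Cxcr4, 1 each. Of the rises 8 lay at Fpr1 and Fpr2, neighbouring genes of formyl peptide receptors that sense bacterial products, with 3 of 8 and 5 of 9 peaks. The sums of both genes rose, by 0.57 ± 0.08 and 0.59 ± 0.07 on the log2 scale (limma adjusted p = 4.49e-05 and 1.03e-05). In the same list the sum of Ceacam1, a cell adhesion gene, fell (log2 fold change -0.46 ± 0.09, limma adjusted p = 0.00175), and the Csf3r peak with the smallest p fell from 92.2 ± 21.2 to 46.9 ± 8.03 normalized reads (limma adjusted p = 0.00297). Csf3r had 3 peaks higher and 1 lower of 13, and its sum did not pass the test (0.17 ± 0.07, limma adjusted p = 0.0714). The factors of granulocyte maturation had 9 higher and 12 lower of 187, or 11.2%, with a median of -0.06. Runx1 held 77 of these peaks, with 3 higher and 9 lower, and Gfi1, the gene replaced in both genotypes, had 3 higher and 2 lower of 13. Cebpe, the gene of C/EBP-epsilon, had no called peak of 6, and the peak with its smallest p held 157 ± 14.5 against 118 ± 25.3 normalized reads (limma adjusted p = 0.0732). These shares stand beside the 10.5% of all tested peaks.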

How the data were processed

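Normalized read counts per consensus peak were used as deposited, a coverage signal for which the authors, judging from the values, scaled each library by a single factor. All values (100% at a tolerance of 0.01 reads) were whole multiples of 1 step per library, 0.755 to 1.23 normalized reads per read, and the reads were recovered from them. Per the submitters' processing notes the build was mm10, and the tools included BWA, MACS2 and DiffBind, beside HOMER, ChIPseeker, Picard, SAMtools and Trim Galore. Their versions and roles, the merging of peaks and any transposase shift are not stated in the labels used here. Columns named WT were taken as GFI1-KI, from the series title and matching numbers. Chromosome codes were read in alphabetical order of chromosome names.

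Peaks were assigned to 21887 RefSeq protein-coding genes, and start sites came from RefSeq promoter windows. A further motif searched in those windows is not reported here. Peaks with a mean under 10 normalized reads were left out (11433 in all, 3 of them members). Peaks and gene sums were compared in R 4.3.3 with limma 3.58.1, whose trended moderated test (two-sided) was run on log2(value + 1), with p-values Benjamini-Hochberg adjusted over everything tested, and the fold changes are on that scale. The step was tested on simulated data. edgeR 4.0.16 and DESeq2 1.42.0 on recovered reads were alternatives. No block was used. Low counts limit weak peaks: a floor of 3 reads is 2.27 to 3.70 normalized reads.

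The members and lists were chosen with earlier results of these data known. The peaks named are every called member peak, the start-site peaks, and the strongest peak and that with the smallest p of each gene, 20 in all, and others are named for the pattern of their gene after their values were seen. So were the individual context genes.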

Additional observations from a re-analysis of the deposited data

How the results depend on the processing

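The 9 called member peaks, of 58 tested, became 15 with equal totals over gene-end peaks and 14 with equal totals over start-site peaks (chosen after seeing the data). With only peaks in the gene body or within 1 kb of it, 5 of 24 tested peaks were called. The count was 16 at an adjusted p under 0.1 and 2 under 0.01, and 2 to 16 when single libraries were left out. Beside the 15 and 14, the share called among all tested peaks went from 10.5% to 12.8% and 12.7%, and the share called higher from 4.99% to 9.58% and 9.40%. The cause was not tested, except that the last assignment and the thresholds change what can be counted. All 9 were among the 15, the 14 and the 16. edgeR called 12 and DESeq2 7, beside 12.6% and 6.31% of all tested peaks. For the other thresholds and the narrower assignment no share of all peaks was counted. The 3 called start-site peaks ran from 0 to 4 without single libraries and were 3 or 4 otherwise, and no share of all start-site peaks was counted for these. The 2 called gene sums became 5, all higher, with median-of-ratios scaling, with equal totals over all, gene-end or start-site peaks, and with the replicate block, and ran from 1 to 5 without single libraries. Among all gene sums the share called higher was 3.86% as reported and 7.24%, 8.17%, 15.4%, 14.97% and 5.22% under those 5 alternatives. Over the libraries left out this share ran from 1.89% (without KD3) to 5.49% (without KI1), and it was 2.31% without KI2. Over all tested peaks same-numbered libraries did not deviate together (correlations of -0.02, -0.04 and 0.06). Such a correlation cannot exclude an effect that same-numbered libraries share at fewer peaks, so pairing was not settled. The replicate block gave 10 called peaks, beside 11.1% of all tested peaks, and 3 start-site peaks. With it the SE of the Fcnb start-site peak went from 0.205 to 0.158, and that of the falling Ltf peak from 0.272 to 0.285. The share of all gene sums called went from 17.2% to 22.7%.

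No called peak or sum turned its direction. Signs turned at uncalled values near 0. The Mmp8 peak inside the gene took log2 fold changes of -0.0042, -0.0005 and -0.0015 without KI2, KI3 and KD1, within a range of -0.0042 to 0.0603 over the libraries left out. The strongest Mmp9 peak took 0.0234, 0.0193 and 0.0418 with equal totals over gene-end or start-site peaks and without KD2, within -0.1867 to 0.0418 over the libraries left out. The Ltf sum took 0.0262, 0.0221 and 0.069 under those 2 scalings and with peaks in the gene body or within 1 kb, and the Mmp9 sum 0.0154 and 0.0113 under those scalings. Scaling also set the balance over all peaks: the share higher in GFI1-KD among called peaks was 47.7% as deposited, 59.7% with median-of-ratios scaling and 74.8% with equal totals over gene-end peaks, which moved the median of all peaks by 0.12. Depth limits the weak peaks, and calls near the threshold rest on 3 libraries a genotype.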
